A study of Mus musculus with 30 samples.

Results

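Imprinted genes were followed in 30 single primordial germ cells (PGCs), the founders of eggs and sperm, taken from mouse embryos at E7.25-E7.5. The set was chosen by function, with earlier results of these data known. It held 34 genes known in the mouse for expression from only the maternal or only the paternal copy in at least some tissues. Of these, 32 had a probe set of their own on the array, among 18194 genes measured in all. Of the 32, 18 are known as paternally expressed, 13 as maternally expressed, and *Gnas* uses either copy depending on the isoform. Where a gene had several probe sets, the one with the highest mean over the 30 cells stood for it. *H19* and *Zrsr1* could not be counted, since the only probe set naming *H19* was listed under both *Mir675* and *H19*, and none was found under *Zrsr1*.

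Imprinting marks a gene in the parental germ line with DNA methylation, and the mark keeps one parental copy silent in the body of the offspring. Many imprinted genes act on fetal and placental growth, where paternally expressed genes such as *Igf2* tend to promote it and maternally expressed genes such as *Igf2r*, *Grb10* and *Phlda2* tend to restrain it. PGCs inherit these marks and erase them later in their development, and PRDM14 is a transcriptional regulator of early PGCs. The arrays measured the RNA of a gene without telling its parental copies apart, so no value below says which copy was read.

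The cells came from C57BL/6 embryos of a *Prdm14*+/- intercross. They were labelled *Prdm14* KO (*Prdm14*-/-, 4 cells), *Prdm14*+/- (13 cells) or wild type (WT, 13 cells), and all were picked by capillary from the dissociated base of the allantois bud, where PGCs gather, amplified singly and kept for their *Prdm1* signal by PCR. The array codes in the sample names show 3 runs. Run 3 held the 4 cells labelled KO and 6 labelled *Prdm14*+/-, run 2 held 7 labelled *Prdm14*+/- and 3 labelled WT, and run 1 held 10 labelled WT, so cells labelled KO and WT shared no run. The labels name no embryo. Each genotype therefore counts as 1 sample, no test of a difference between labels was run, and each SD describes the spread between cells.

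Values are log2 MBEI, the model-based expression index of a probe set, and values below 6 (64 MBEI) were set to 6, called the floor here. A gene is called over the floor in a cell where its value exceeded 6. The *Prdm14* probe set ran against the genotype labels. It averaged 11.40 ± 0.98 in cells labelled KO (over the floor in 4 of 4), 9.70 ± 1.93 in cells labelled *Prdm14*+/- (12 of 13) and 7.40 ± 1.85 in cells labelled WT (6 of 13; SD). The sources used here do not say whether this probe set lies in the part of the gene that was altered, so the groups are called by their labels throughout. Whether labels were exchanged was not tested, and an exchange of the KO and WT labels would turn every direction given between them. Genes over the floor numbered 7292 to 7565 per cell labelled KO, 5926 to 7753 per cell labelled *Prdm14*+/- and 5752 to 8149 per cell labelled WT. Of 11 germ cell markers measured, *Alpl*, *Ifitm3* and *Ifitm1* were over the floor in all 30 cells, as was *Prdm1*, by which the cells had been picked. The other markers were over it in fewer cells, with *Kit* in 28, *Dnd1* in 27, *Tfap2c* in 26 and *Dppa3* in 24. *Prdm14* was over it in 22, *Sox2* in 20 and *Itgb3* in 4. *Dppa3* was at the floor in 3 cells labelled *Prdm14*+/- and 3 labelled WT. Of the 11, 8 were higher by at least 1 in cells labelled KO than in those labelled WT, *Prdm14* itself among them, and 0 were lower, compared with 7.9% and 4.32% of all genes.

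The promoters of 3 members named in the results below are shown, and CG dinucleotides, where DNA methylation can sit, are in capitals. No methylation was measured, and whether these windows carry an imprint was not tested. The windows run from 250 bases before to 50 bases after the start of transcription, and the sequences are those of RefSeq on GRCm38.p6. *Peg3* was over the floor in every cell, *Phlda2* was too but stood far down in 1 cell labelled KO, and *Asb4* was at the floor in every cell labelled KO.
Peg3 (chr7:6730370-6730669, minus strand): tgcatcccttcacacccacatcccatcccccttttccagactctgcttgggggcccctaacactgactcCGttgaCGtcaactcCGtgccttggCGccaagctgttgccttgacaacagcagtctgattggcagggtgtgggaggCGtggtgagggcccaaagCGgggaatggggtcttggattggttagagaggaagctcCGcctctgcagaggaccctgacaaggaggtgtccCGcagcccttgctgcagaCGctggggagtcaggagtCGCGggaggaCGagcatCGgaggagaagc
Phlda2 (chr7:143502475-143502774, minus strand): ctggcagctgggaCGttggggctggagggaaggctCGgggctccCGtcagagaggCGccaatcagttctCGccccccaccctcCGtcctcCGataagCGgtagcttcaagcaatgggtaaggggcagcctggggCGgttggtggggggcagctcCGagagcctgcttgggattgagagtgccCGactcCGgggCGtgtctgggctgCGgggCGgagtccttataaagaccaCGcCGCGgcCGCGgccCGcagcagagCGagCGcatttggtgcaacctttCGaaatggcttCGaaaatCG
Asb4 (chr6:5383136-5383435, plus strand, the window farther upstream): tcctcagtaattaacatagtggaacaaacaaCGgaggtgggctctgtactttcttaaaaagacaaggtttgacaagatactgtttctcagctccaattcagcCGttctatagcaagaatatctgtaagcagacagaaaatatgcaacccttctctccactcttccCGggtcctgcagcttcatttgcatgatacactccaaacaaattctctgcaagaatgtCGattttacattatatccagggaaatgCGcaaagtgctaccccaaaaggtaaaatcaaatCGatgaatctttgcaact
The *Phlda2* window held 26 CGs, the *Peg3* window 13 and the *Asb4* window 6, counted on both strands alike, since CG reads the same on each. Of 32851 such windows in the mouse, 16.9% held at least as many CGs as that of *Phlda2*, 37.9% as many as that of *Peg3* and 56.4% as many as that of *Asb4*. The median was 13 CGs over the 45 windows of 28 listed genes and 7 over all windows. The *Peg3* window shared 263 bases with the window of *Usp29*, which is read in the opposite direction. *Peg3* was over the floor in 30 of 30 cells and *Usp29* in 2 of 30, both labelled WT.

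Most imprinted genes were either present in nearly every PGC or present in some cells and not in others. *Peg3*, *Slc38a4*, *Igf2r*, *Phlda2*, *Meg3* and *Gnas* were over the floor in all 30 cells, which is 6 of 32 members or 18.8%, compared with 9.4% of all genes. *Impact*, *Ndn*, *Mcts2*, *Grb10*, *Cdkn1c* and *Ube3a* followed, with 23 to 28 cells. In all, 22 members (68.8%) were over the floor in at least 50% of the cells of some genotype label, compared with 48.6% of all genes. They comprised 11 of the 18 paternally expressed genes, 10 of the 13 maternally expressed genes and *Gnas*. Per gene, the members had more probe sets to choose from, with 88 for 32 members and 34958 for all 18194 genes. The part of this choice in the shares of members and of all genes over the floor was not tested.

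**Figure D1:**
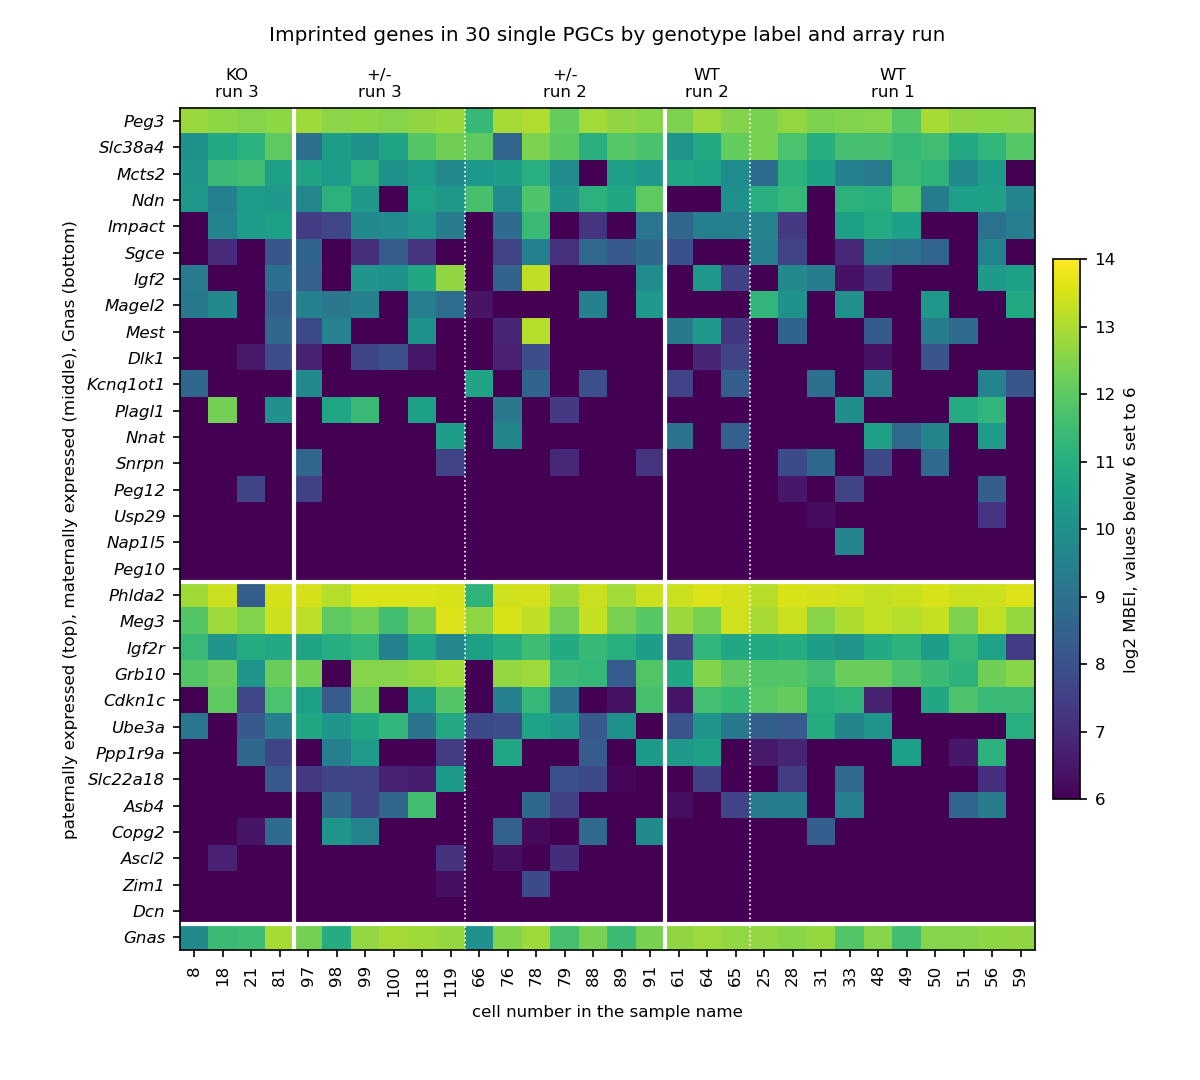
Each column is 1 PGC, ordered by genotype label and array run, and each row 1 of the 32 imprinted genes, with log2 MBEI in colour (values below 6 set to 6). Paternally expressed genes are at the top, maternally expressed genes in the middle and Gnas at the bottom. Of the genes, 6 were over the floor in all 30 cells, and Peg10 and Dcn in 0.

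The other members were seen in fewer cells. There were 13 that were over the floor in 8 to 20 cells, among them the growth factor gene *Igf2* (18 cells), the hydrolase gene *Mest* (14), the Notch ligand relative *Dlk1* (13), the sarcoglycan gene *Sgce* (20), the long non-coding RNA *Kcnq1ot1* (11) and the neurabin gene *Ppp1r9a* (16). *Peg12* was over the floor in 5 cells, *Ascl2*, a trophoblast transcription factor gene, in 4, *Usp29* and *Zim1* in 2 each, and *Nap1l5* in 1. *Peg10*, a retrotransposon-derived gene of the placenta, and the proteoglycan gene *Dcn* were at the floor in all 30 cells. The members never seen made up 6.25% of the set, compared with 27.1% of all genes.

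Several imprinted genes varied strongly from cell to cell. The median SD over the 30 cells was 1.19 for the 32 members and 0.66 for all genes, with 1.29 for the paternally and 1.09 for the maternally expressed ones. The floor takes part in these figures, since a gene at the floor in most cells has little spread. Among genes over the floor in all 30 cells, the median SD was 0.88 for the 6 members and 0.64 for all 1711 such genes. The SDs of these 6 ran from 0.33 for *Peg3* to 0.996 for *Phlda2*. The members that varied most over the 30 cells were *Cdkn1c* (SD 2.39), *Igf2* (2.24), *Plagl1* (2.23) and *Magel2* (1.96).

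*Peg3*, a zinc finger gene, was nearly even over all groups. It had 12.80, 12.65, 12.55 and 12.64 in the cells labelled KO. It ranged from 11.35 to 13.06 with a median of 12.67 in cells labelled *Prdm14*+/-, and from 11.90 to 12.94 with a median of 12.56 in those labelled WT. The mean was 12.66 ± 0.10 in cells labelled KO, 12.59 ± 0.44 in cells labelled *Prdm14*+/- and 12.54 ± 0.25 in cells labelled WT (SD), and the groups overlapped. The lowest value belonged to cell 66, labelled *Prdm14*+/-, which also had the fewest imprinted genes over the floor (11) and 5926 genes over the floor in all.

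The long non-coding RNA *Meg3* and the amino acid transporter gene *Slc38a4* were likewise present in every cell. *Meg3* had 11.87, 12.82, 12.49 and 13.39 in cells labelled KO, ranged from 11.58 to 13.59 with a median of 12.39 in cells labelled *Prdm14*+/- and from 12.40 to 13.42 with a median of 13.02 in cells labelled WT. *Slc38a4* had 10.07, 10.83, 11.10 and 12.005 in cells labelled KO, ranged from 8.61 to 12.43 with a median of 11.71 in cells labelled *Prdm14*+/- and from 10.14 to 12.39 with a median of 11.54 in cells labelled WT. For both genes the 3 groups overlapped, and the cells labelled KO lay inside the range of those labelled *Prdm14*+/-. Of 11 *Meg3* probe sets, 3 were over the floor in all 30 cells. Between KO and WT labels these differed by -0.33, -0.30 and -0.21. Another *Meg3* probe set averaged 9.74 ± 2.66 in cells labelled KO (over the floor in 3 of 4), 11.18 ± 0.99 in cells labelled *Prdm14*+/- (13 of 13) and 10.97 ± 0.83 in cells labelled WT (13 of 13; SD).

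Of the 32 imprinted genes, 5 differed in mean by at least 1 between cells labelled KO and WT. This size, in mean log2 MBEI, was the one counted throughout. *Phlda2*, *Asb4*, *Nnat* and *Gnas* were lower by at least 1, which is 4 of 32 members (12.5%), compared with 4.32% of all genes. *Plagl1* was higher by at least 1, which is 1 of 32 (3.1%), compared with 7.9% of all genes. The median difference was -0.18 over the members, -0.06 over the paternally expressed and -0.27 over the maternally expressed ones, and 0 over all genes. The floor takes part in these medians, since 27.1% of all genes and 6.25% of the members were never over it and so differed by exactly 0. The maternal value was 0 without cell 8, 18 or 21 and -0.52 without cell 81. A value of 0 is that of *Dcn* and *Zim1*, at the floor in all cells of both labels. Of the 5 genes that differed by at least 1, *Phlda2* and *Gnas* had a difference larger than the pooled SD between cells. The counts moved with the processing, to 12 lower and 2 higher with the array run as a block and to 10 lower after scaling to the same 75th percentile. The shares of all genes under these 2 settings are not given, so a shift of all genes cannot be told apart from one of the members. With medians over cells 4 genes were again lower, of which 1, *Gnas*, was shared. Genes near the floor reach such a size less easily, and among the 13 members with a mean of at least 8 over the 30 cells the counts were 2 lower and 0 higher, where 8.17% and 13.3% of all 5273 such genes were.

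**Figure D2:**
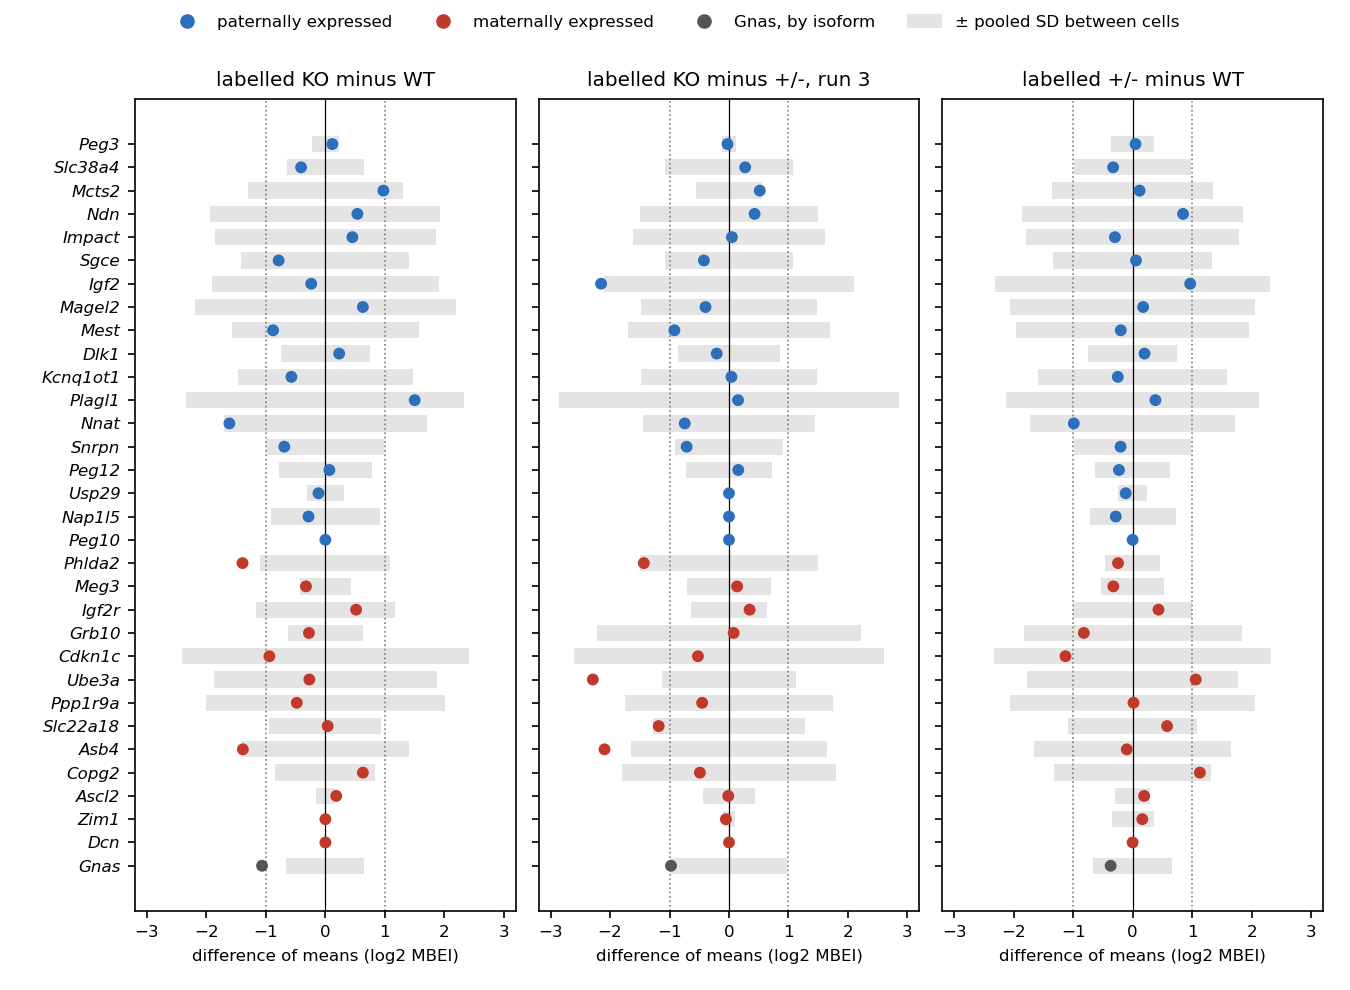
Points give the difference of mean log2 MBEI for each of the 32 imprinted genes in cells labelled KO minus WT, KO minus Prdm14+/- within run 3, and Prdm14+/- minus WT, coloured by parental expression. Grey bars span plus and minus the pooled SD between cells, and dotted lines mark -1 and 1. Phlda2 and Gnas in the left panel, and Ube3a, Asb4 and Igf2 in the middle panel, lie beyond both.

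*Phlda2*, a pleckstrin homology domain gene that restrains placental growth, was near 13 in almost every cell. It had 12.86, 13.37, 8.41 and 13.47 in cells labelled KO. It ranged from 11.21 to 13.55 with a median of 13.44 in cells labelled *Prdm14*+/- and from 13.15 to 13.58 with a median of 13.41 in those labelled WT. A single cell labelled KO, cell 21, stood below all others, while 1 of the others was just below and 2 were inside the range of the WT label. The means were 12.03 ± 2.43 in cells labelled KO, 13.17 ± 0.64 in those labelled *Prdm14*+/- and 13.42 ± 0.12 in those labelled WT (SD), and the difference of -1.39 between KO and WT labels became -0.19 without cell 21. That cell had 7565 genes over the floor, the most of the 4.

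*Gnas*, which encodes the stimulatory G protein alpha subunit, was lower in most of the cells labelled KO. It had 9.83, 11.46, 11.51 and 12.94 in these cells. It ranged from 10.03 to 12.91 with a median of 12.41 in cells labelled *Prdm14*+/- and from 11.58 to 12.82 with a median of 12.64 in those labelled WT. Of the 4 cells labelled KO, 3 were below every cell labelled WT and 1 was above them all. The mean was 11.44 ± 1.27 in cells labelled KO, 12.13 ± 0.87 in cells labelled *Prdm14*+/- and 12.50 ± 0.37 in cells labelled WT (SD), and the difference between KO and WT labels was -1.06. It fell short of 1 without cell 8, and the mean over all 5 *Gnas* probe sets, of which 3 were at the floor in every cell, gave -0.21.

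*Asb4*, a SOCS box adaptor gene of a chromosome 6 cluster, was not seen in cells labelled KO. It was at the floor in 4 of 4 of them, over the floor in 6 of 13 labelled *Prdm14*+/-, with a highest value of 11.59, and in 7 of 13 labelled WT, with a highest value of 9.47. A count of 0 of 4 cells has an exact (Clopper-Pearson) 95% interval up to 60.2%, which covers counting error only and includes the 46.2% and 53.8% of the other labels. The mean was 6.00 in cells labelled KO, 7.29 ± 1.73 in those labelled *Prdm14*+/- and 7.39 ± 1.58 in those labelled WT (SD). The difference of -1.39 is a floor-bound value and lay within the pooled SD of 1.41.

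*Nnat*, which encodes the small membrane protein neuronatin, is added here after its values were seen. It was over the floor in 0 of 4 cells labelled KO, 2 of 13 labelled *Prdm14*+/- and 6 of 13 labelled WT, where its highest value was 10.59. The difference of -1.61 between KO and WT labels lay within the pooled SD of 1.70.

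*Plagl1*, a zinc finger regulator of growth genes, was on in some cells under every label. It had 6.00, 12.33, 6.00 and 10.04 in cells labelled KO. It was over the floor in 5 of 13 cells labelled *Prdm14*+/- and 3 of 13 labelled WT, and its highest value was 11.40 in cells labelled *Prdm14*+/- and 11.28 in cells labelled WT. The groups overlapped, and the difference of 1.502 between KO and WT labels lay within the pooled SD of 2.34. With the array run as a block it was 0.80, and no member was higher by at least 1 without cell 18.

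**Figure D3:**
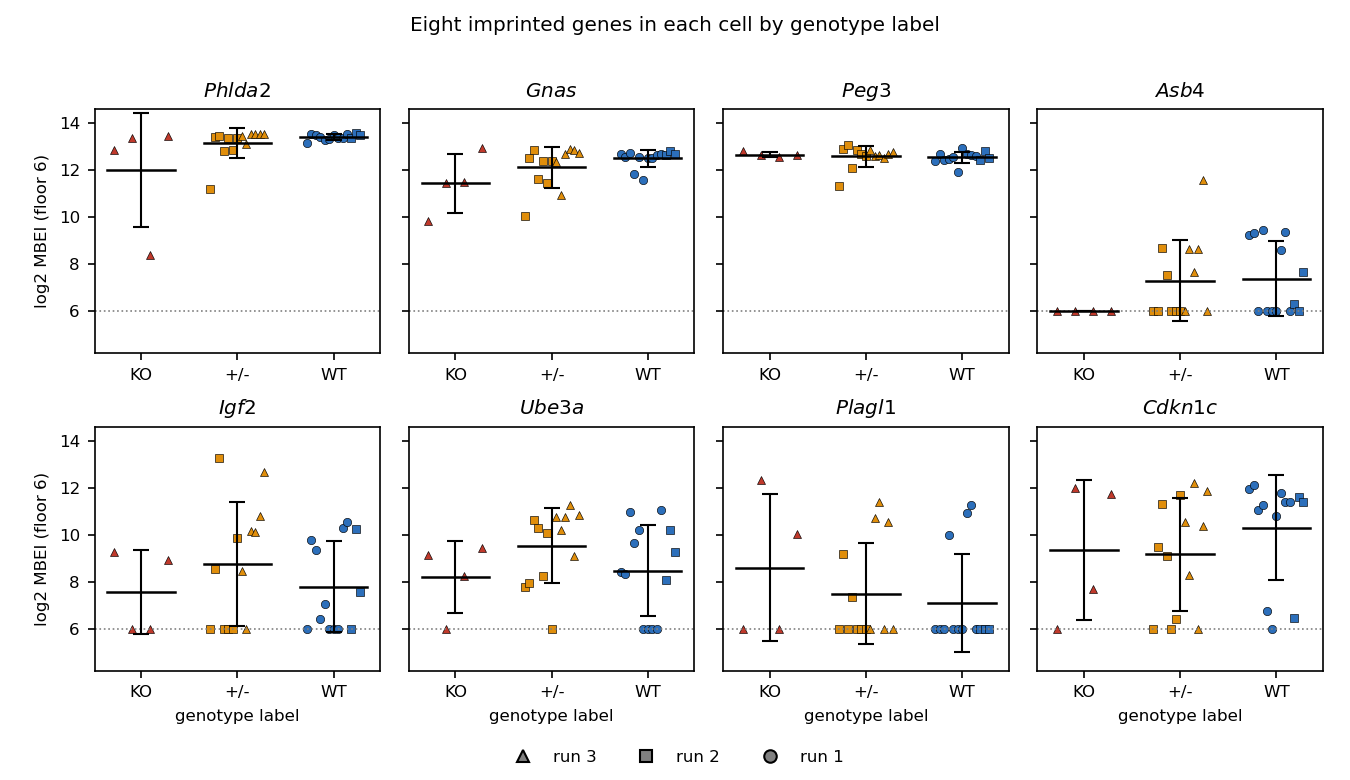
Log2 MBEI (floor 6, dotted) of 8 imprinted genes, where each symbol is 1 cell, its shape shows the run, black lines mark means and whiskers span plus and minus 1 SD over cells. Asb4 lies at the floor in all 4 cells labelled KO, 1 cell labelled KO stands alone for Phlda2 at 8.41, and Peg3 overlaps across the labels.

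Within array run 3, where cells labelled KO and *Prdm14*+/- can be set side by side, 5 members were lower by at least 1 in the cells labelled KO and 0 were higher. This is 15.6% lower, compared with 5.62% of all genes, while 8.6% of all genes were higher. The 5 were *Ube3a*, *Igf2*, *Asb4*, *Phlda2* and *Slc22a18*. All but *Phlda2* were also higher by at least 1 in cells labelled *Prdm14*+/- of run 3 than in those of run 2. *Igf2* averaged 7.55 in cells labelled KO and 7.94 in cells labelled *Prdm14*+/- of run 2, and *Slc22a18* 6.56 and 6.55. *Asb4* was over the floor in 0 of 4 and 2 of 7 of these cells. The part of the reference cells of run 3 in these differences was not tested. Of the 13 members with a mean of at least 8, 3 were lower and 0 higher, where 9.9% and 15.2% of all such genes were. The median difference was 0 over the paternally expressed and -0.45 over the maternally expressed genes. The value of 0 is that of *Peg10*, *Usp29* and *Nap1l5*, at the floor in all cells of both groups. The value of -0.45 is that of *Ppp1r9a*, whose other probe sets gave 1.74, 0.04, -0.26 and 0. The maternal value was -0.05 without cell 8 or without cell 21, -0.20 without cell 18, -0.64 without cell 81, 0 with medians over cells and -0.16 against all 13 cells labelled *Prdm14*+/-, a reference chosen after seeing the data. Of the 5 genes lower by at least 1, *Ube3a*, *Asb4* and *Igf2* had differences larger than the pooled SD. The same 4 cells labelled KO enter this comparison and that with the WT label.

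*Ube3a*, a ubiquitin ligase gene whose imprinting is known from neurons, had 9.14, 6.00, 8.24 and 9.41 in cells labelled KO. It had 10.76, 10.20, 10.77, 11.28, 9.08 and 10.83 in the 6 cells labelled *Prdm14*+/- of the same run. The groups overlapped only through the cell at 9.08. The mean was 8.20 ± 1.55 in cells labelled KO and 10.49 ± 0.77 in cells labelled *Prdm14*+/- (SD), with a difference of -2.29. Cells of other runs were closer to those labelled KO, with means of 8.71 in cells labelled *Prdm14*+/- of run 2 and 8.47 in all cells labelled WT. The mean over all 6 *Ube3a* probe sets, of which 2 were at the floor in every cell, gave a difference of -0.13 within run 3.

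*Igf2* had 9.28, 6.00, 6.00 and 8.91 in cells labelled KO. It had 8.47, 6.00, 10.16, 10.11, 10.78 and 12.67 in cells labelled *Prdm14*+/- of run 3. The groups overlapped, with 4 of the 6 cells labelled *Prdm14*+/- above every cell labelled KO, and the difference was -2.15 with a pooled SD of 2.10. In cells labelled WT, *Igf2* was over the floor in 8 of 13, with a highest value of 10.55, and the difference between KO and WT labels was -0.24.

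*Asb4* was over the floor in 4 of 6 cells labelled *Prdm14*+/- of run 3, at 8.65, 7.68, 8.64 and 11.59, and in 0 of 4 labelled KO, with a difference of -2.09 and a pooled SD of 1.65. *Slc22a18*, an organic cation transporter relative next to *Phlda2*, had 6.00, 6.00, 6.00 and 8.24 in cells labelled KO. It was over the floor in 6 of 6 cells labelled *Prdm14*+/- of run 3, from 6.65 to 10.36. The difference of -1.18 lay within the pooled SD of 1.27. For *Phlda2* the difference in run 3 was -1.43, within the pooled SD of 1.49, and it too rested on cell 21.

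Between cells labelled *Prdm14*+/- and WT, *Copg2* and *Ube3a* were higher by at least 1 and *Cdkn1c* was lower. This is 6.25% and 3.1% of the members, compared with 2.42% and 1.95% of all genes. With a mean of at least 8 there were 1 higher and 1 lower of 13, where 4.93% and 4.17% of all such genes were. None of the 3 exceeded its pooled SD. *Cdkn1c*, the gene of a cyclin-dependent kinase inhibitor, had 6.00, 12.01, 7.69 and 11.73 in cells labelled KO. It ranged from 6.00 to 12.19 with a median of 9.47 in cells labelled *Prdm14*+/- and from 6.00 to 12.10 with a median of 11.37 in those labelled WT, and the groups overlapped. *Copg2*, a coatomer subunit gene, had 6.00, 6.00, 6.46 and 8.79 in cells labelled KO. It was over the floor in 6 of 13 cells labelled *Prdm14*+/- and 1 of 13 labelled WT. For *Ube3a* the difference of 1.06 turned to -0.45 within run 2.

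Cells of one label also differed between array runs. In cells labelled *Prdm14*+/-, 8 members were higher by at least 1 in run 3 than in run 2 and 1 was lower, which is 25.0% and 3.1%, compared with 5.16% and 4.45% of all genes. The 8 were *Plagl1* (1.79), *Ube3a* (1.78), *Igf2* (1.75), *Magel2* (1.58), *Asb4* (1.49), *Cdkn1c* (1.32), *Impact* (1.30) and *Slc22a18* (1.19). *Ndn*, a MAGE family gene, was lower by 1.37. Of these 9, *Ube3a* and *Slc22a18* exceeded the pooled SD. All cells labelled KO were in run 3 and 0 of those labelled WT were, so a difference between these labels also holds any difference between the runs, and the part of the run was not tested.

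Within run 2, the cells labelled *Prdm14*+/- and WT differed by at least 1 for 11 members, 5 higher and 6 lower, compared with 6.02% and 8.3% of all genes. This rests on 3 cells labelled WT. *Ndn* differed most, by 3.72, since 2 of these 3 cells were at the floor, while in run 1 it was over the floor in 9 of 10 cells labelled WT. *Ndn* was over the floor in 4 of 4 cells labelled KO, from 9.47 to 10.38.

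*Magel2* and *Grb10* were among the members with large spread or high level that differed by less than 1 over the full comparisons of labels. Within run 2 alone, cells labelled *Prdm14*+/- differed from those labelled WT by 1.18 for *Magel2* and by -1.14 for *Grb10*. *Magel2*, a MAGE family gene beside *Ndn*, had 9.23, 9.77, 6.00 and 8.43 in cells labelled KO. It was over the floor in 8 of 13 cells labelled *Prdm14*+/-, with a highest value of 10.32, and in 5 of 13 labelled WT, with a highest value of 11.26. *Grb10*, an adaptor gene that dampens insulin and IGF signalling, had 11.83, 12.14, 10.17 and 12.19 in cells labelled KO. It ranged from 6.00 to 12.88 with a median of 12.33 in cells labelled *Prdm14*+/-, where 2 of 13 were at the floor, and from 10.75 to 12.58 with a median of 11.87 in those labelled WT.

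Neighbouring imprinted genes were compared across cells as a description. On distal chromosome 7, *Igf2* and *Phlda2* had a Spearman rho of 0.70 over the 30 cells and 0.57 over the 10 cells labelled WT of run 1, and *Cdkn1c* and *Phlda2* had 0.46 and 0.21. The paternally expressed *Kcnq1ot1* and the maternally expressed *Cdkn1c*, which share a cluster, had -0.30 and -0.24. With the maternally expressed *Phlda2* and *Slc22a18*, *Kcnq1ot1* had -0.10 and 0, and -0.29 and -0.07. With *Igf2*, also paternally expressed, it had 0.14 and 0.68. *Kcnq1ot1* was over the floor in only 11 of the 30 cells, and not every pair of neighbours is given here. *Ndn* and *Magel2* had 0.18 and -0.10, although all 16 cells with *Magel2* over the floor also had *Ndn*, 10 had *Ndn* alone and 4 had neither. *Dlk1* and *Meg3*, read from opposite parental copies of chromosome 12, had 0.15 and 0.41. The cells share runs, labels and overall signal, and the number of imprinted genes over the floor had a rho of 0.53 with the number of all genes above it. That number was 13 to 21 per cell labelled KO with a median of 15.5, 11 to 21 per cell labelled *Prdm14*+/- with a median of 18, and 13 to 22 per cell labelled WT with a median of 17.

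Probe sets of one gene did not always tell the same story. The 32 members had 88 probe sets of their own, of which 8 were over the floor in all 30 cells and 21 in none. There were 7 members with one probe set over the floor in at least 50% of the cells and another in none. For *Peg3*, the probe set with the next highest mean averaged 9.69 ± 1.18 in cells labelled KO (over the floor in 4 of 4), 9.69 ± 1.25 in cells labelled *Prdm14*+/- (12 of 13) and 7.26 ± 1.55 in cells labelled WT (6 of 13; SD), while the first was nearly even. Another *Peg3* probe set was over the floor in 3 of 4 cells labelled KO, 7 of 13 labelled *Prdm14*+/- and 11 of 13 labelled WT. For *Igf2r*, the receptor that clears IGF2, the second probe set averaged 8.37 ± 1.16 in cells labelled KO (over the floor in 4 of 4), 6.21 ± 0.57 in cells labelled *Prdm14*+/- (3 of 13) and 6.13 ± 0.48 in cells labelled WT (1 of 13; SD). The first averaged 10.82 ± 0.52 in cells labelled KO, 10.74 ± 0.59 in cells labelled *Prdm14*+/- and 10.30 ± 1.29 in cells labelled WT. Within run 3 the second *Igf2r* probe set was over the floor in 2 of 6 cells labelled *Prdm14*+/-. The sources used here do not give the transcripts or parts of a transcript that these probe sets read.

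**Figure D4:**
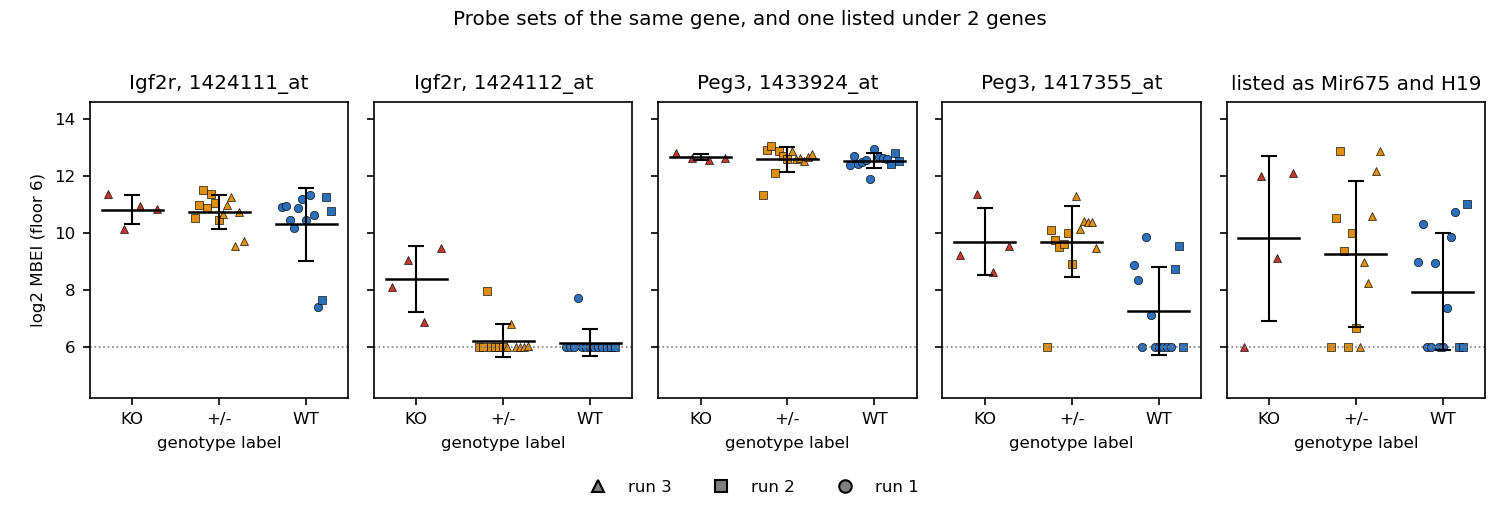
Log2 MBEI (floor 6, dotted) of both Igf2r probe sets, 2 Peg3 probe sets and the probe set listed under Mir675 and H19, where each symbol is 1 cell, its shape shows the run, black lines mark means and whiskers span plus and minus 1 SD over cells. The second Igf2r probe set is over the floor in all 4 cells labelled KO and in 4 of the other 26, and the second Peg3 probe set is at the floor in 7 of 13 cells labelled WT.

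Other probe sets named several genes and stayed out of the counts. The one listed under *Mir675* and *H19* was over the floor in 3 of 4 cells labelled KO, 10 of 13 labelled *Prdm14*+/- and 7 of 13 labelled WT. *Snrpn*, a splicing factor gene, was represented by a weak probe set over the floor in 8 of 30 cells, whereas 3 probe sets listed under both *Snurf* and *Snrpn* were over the floor in all 30. The one of these with the highest mean averaged 10.76 ± 0.38 in cells labelled KO, 11.06 ± 0.43 in cells labelled *Prdm14*+/- and 11.08 ± 0.68 in cells labelled WT (SD). *Mcts2*, over the floor in 28 cells, is a retrogene copy of *Mcts1*, and the sources used here do not say whether its probe set tells them apart.

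Genes that set, keep or remove imprints were counted as a separate list. Of 20 measured, 2 were higher and 3 lower by at least 1 in cells labelled KO than in those labelled WT, compared with 7.9% and 4.32% of all genes, and the median difference was 0.01. *Dppa3*, with reported roles both in protecting DNA methylation and, in PGCs, in removing it, differed by 3.51. It was higher under the KO label as *Prdm14* was. The dioxygenase gene *Tet1* differed by 2.33, the methyltransferase gene *Dnmt3b* by -3.52 and *Uhrf1*, the partner of maintenance methylation, by -2.02. Of 35 further imprinted genes outside the set, 4 were higher by at least 1 and 0 were lower, with a median of 0. *Atp10a* (2.38) and *Jade1* (1.71) differed most upward, and *Cd81* (-0.30) and *Casd1* (-0.21) most downward among those with a mean of at least 8 under some label.

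Markers of other cell types were counted in the comparison of KO and WT labels, where 7.9% of all genes were higher by at least 1 and 4.32% lower. Of 8 extraembryonic ectoderm and trophoblast markers, 4 were lower by at least 1 in cells labelled KO than in those labelled WT and 0 were higher, namely *Krt18* at -2.0, *Tfap2a* at -1.5, *Krt8* at -1.06 and *Hand1* at -1.04, while *Gata3* differed by 0.74. Over the 30 cells, *Krt18* was over the floor in 26, *Krt8* and *Hand1* in 25 each, *Gata3* in 17, *Tfap2a* in 9 and *Eomes* in 2, while *Elf5* and *Tpbpa*, defining genes of that lineage, were at the floor in all. The mean over the list was 6.26 to 7.98 per cell labelled KO, 6.18 to 9.23 per cell labelled *Prdm14*+/- and 6.11 to 8.53 per cell labelled WT. Of 14 somatic mesoderm markers, 4 were lower, namely *Mesp1* at -1.19, *Twist1* at -1.15, *Msx2* at -1.07 and *Hand1*, and 1 was higher, *Tbx6* at 1.44. *Hand1* is on both lists and so is counted in each. The mean over the mesoderm list was 7.43 to 8.62 per cell labelled KO, 7.37 to 9.49 per cell labelled *Prdm14*+/- and 7.62 to 8.83 per cell labelled WT. Of 9 endoderm markers, 1 was higher, namely *Sox17* by 1.10, and 0 were lower. Of these 9, 4 were at the floor in all 30 cells. None of the 6 allantois, 8 blood and endothelium and 5 epiblast and ectoderm markers differed by at least 1 either way. Of these, 2, 5 and 3 were at the floor in all 30 cells. The means over these lists in cells labelled WT were 6.06, 6.03 and 6. So near the floor, a fall under the KO label could not be seen, and the count speaks only against a rise of at least 1. The part of these markers in the differences of imprinted genes was not tested.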

How the data were processed

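The authors amplified the cDNA of each PGC, hybridised it to 1 Affymetrix mouse genome array and calculated the deposited values, log2 MBEI, with dChip 1.3. Amplification of single-cell cDNA favours the 3' ends of transcripts, so probe sets lying farther upstream can read low. The sources used here do not give the scaling between arrays, and 63.7% of probe sets per array, on average, had a value of 0. Of 45101 probe sets, 34958 had 1 symbol in the platform's annotation, 932 had several and 9211 were not listed. Of several probe sets of a gene, that with the highest mean of deposited values stood for it. Values below 6 were set to 6, and labels were compared by differences of their mean over cells.

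The imprinted genes and all other lists (imprint regulators, further imprinted genes, germ cell, somatic mesoderm, allantois, extraembryonic, endoderm, blood and endothelium, epiblast and ectoderm markers) were chosen with earlier results of these data known. Values per cell were given for members over the floor in at least 50% of the cells of some label that differed by at least 1 in a comparison, were among the 6 with the highest mean or among the 4 with the largest SD. List genes were named by their 2 largest and 2 smallest differences among those with a mean of at least 8 under some label. Each cell's value for a list averaged the list's measured genes. Alternatives were other floors, quantile and percentile scaling, medians, blocking by array run or keeping to 1 run, all probe sets, and leaving out each cell labelled KO. Python 3.11.15, NumPy 2.4.6, pandas 2.3.3, SciPy 1.17.1 and matplotlib 3.10.9 were used.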

Additional observations from a re-analysis of the deposited data

Results flagged for a closer look

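The cells labelled KO and those labelled *Prdm14*+/- of run 3 gave, over 14 genes, 28 groups of 4 or 6 cells, and 8 of these held a value past Dixon's cut-off for one standing apart. Chance passes it in about 1 in 20 groups of normally spread values, a rate that does not apply here, since the genes were partly chosen for their spread and values at the floor are tied. In cells labelled KO these were *Phlda2* in cell 21, at 8.41 against 12.86 to 13.47 in the others, *Slc22a18* in cell 81, at 8.24 with the others at 6.00, and *Copg2* in cell 81, at 8.79 against 6.00 to 6.46. In cells labelled *Prdm14*+/- of run 3, cell 98 stood low for *Grb10* (6.00 against 12.33 to 12.88), *Phlda2* (13.11 against 13.47 to 13.55) and *Gnas* (10.96 against 12.33 to 12.91). Cell 100 stood low for *Magel2* (6.00 against 8.89 to 9.52), and cell 119 stood high for *Slc22a18* (10.36 against 6.65 to 7.67). Cell 98 accounts for 3 of these and had 7381 genes over the floor.

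Probe sets outside the main measurement that were higher by at least 1 in cells labelled KO than in those labelled WT were also marked. The second *Igf2r* probe set averaged 8.37 in cells labelled KO and 6.13 in cells labelled WT. The second *Peg3* probe set averaged 9.69 in cells labelled KO and 7.26 in cells labelled WT. The probe set listed under *Mir675* and *H19* averaged 9.80 in cells labelled KO and 7.94 in cells labelled WT, within the pooled SD of 2.26. A further *Ppp1r9a* probe set averaged 8.26 in cells labelled KO and 7.12 in cells labelled WT, within the pooled SD of 1.54. In the other direction, the further *Meg3* probe set averaged 9.74 in cells labelled KO and 10.97 in cells labelled WT, within the pooled SD of 1.40, and a further *Asb4* probe set averaged 6.00 in cells labelled KO and 7.01 in cells labelled WT, within the pooled SD of 1.31. None of these differences was tested.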

How the results depend on the processing

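Each value below is a count of imprinted genes or a difference in log2 MBEI. For the other floors, scalings, medians, block, all probe sets and left-out cells, the share of all genes is not given. For KO minus WT labels, the 4 genes lower by at least 1 became 12 with the array run as a block, 8 at a floor of 4 in place of 6, 2 at a floor of 8 and 10 after scaling to the same 75th percentile, and the 1 gene higher, *Plagl1*, was no longer so with the block, where 2 others, *Igf2r* and *Ndn*, were, and the count was 5 and 0 at these floors and 2 with medians over cells. Leaving out each cell labelled KO gave 4 to 7 lower and 0 to 3 higher. The median over maternally expressed genes became -1.06 with the block and -0.75 after percentile scaling. Only the 3 cells labelled WT of run 2 tie that label to the others in the block.

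For KO minus *Prdm14*+/- labels within run 3, the 5 genes lower became 8 at the floor of 4, 3 at that of 8 and 3 with the mean over all probe sets, and the 0 higher became 1 with the mean over all probe sets. Leaving out each cell labelled KO gave 4 to 9 lower and 0 to 2 higher. For *Prdm14*+/- minus WT labels, the 2 genes higher became 5 with the block or within run 2, 4 at the floor of 4, 0 at that of 8, 1 with the mean over all probe sets and 1 after percentile scaling, and the 1 lower became 6 with the block or within run 2, 3 at the floor of 4, 0 at that of 8, 2 with medians and 3 after percentile scaling. Of single genes, *Ube3a* turned to -0.45 with the block and within run 2. Of the other values of named genes under these alternatives, 19 moved by more than the spread between cells and 441 did not.

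Alternatives chosen after seeing the data left out the 10 cells labelled WT of run 1 or took all 13 labelled *Prdm14*+/- against KO. Without run 1 there were 3 higher and 5 lower for KO minus WT, and 4 higher and 3 lower for *Prdm14*+/- minus WT. Against all 13 cells labelled *Prdm14*+/- there were 1 higher and 4 lower. No cause of these shifts was tested. No paired analysis was possible because the cells of different labels share no replicate or embryo in the labels. With 4 cells labelled KO, 1 cell decides several of the counts. Without cell 21 the *Phlda2* difference was -0.19, and without cell 18 no member was higher by at least 1 than in the WT label. Without cell 81 the members lower by at least 1 numbered 7 against WT and 9 against *Prdm14*+/-. Values at the floor have no order, and the number of arrays limits the precision.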
